A study of Mus musculus with 1 sample.

Results

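Germ cells with low RNA content were taken as the barcodes of the wild-type library that had fewer than 7000 unique molecular identifiers (UMIs, the tags by which captured mRNA molecules are counted) and at least 4 UMIs of Dazl, Ddx4, Mael, Zbtb16 and Sohlh1 together per 10000. Both this group and its comparison also had at least 500 detected genes and under 10% of UMIs from mitochondrial genes. Of 970 barcodes, 924 met those gene and mitochondrial limits, 327 of them met the germ cell rule, and 62 of these had fewer than 7000 UMIs. The low-RNA cells were therefore 18.96% of the germ cells (95% interval by the exact binomial method, 14.9% to 23.6%) and 6.71% of the 924 barcodes (5.18% to 8.52%). The other 265 germ cells, with 7000 UMIs or more, are called deeper germ cells. A further 160 barcodes with fewer than 7000 UMIs failed the germ cell rule and are given beside them as the other barcodes.

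The library came from wild-type (Zscan2+/+) C57BL/6 mice at postnatal day 8, with no treatment. Testis cells were enriched on magnetic beads for THY1, a surface protein of undifferentiated spermatogonia, and a small number of unselected testis cells was added back. Cells of 3 mice were pooled in equal numbers before 1 Chromium library was made, so mice cannot be told apart, cells are not replicates, and no comparison carries a p-value. No Zscan2−/− cells were analysed here. The matrix held 11358045 UMIs, between 2655 and 44915 per barcode with a median of 9115, for 27998 listed genes, of which 18722 had a UMI.

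In the postnatal mouse testis, spermatogonial stem cells give rise to transit-amplifying progenitors, which respond to retinoic acid by switching on Stra8 and become differentiating spermatogonia that later enter meiosis. Stem cells depend on the glial cell line-derived neurotrophic factor receptor, made of GFRA1 and RET. The number of UMIs in a droplet depends on how much mRNA a cell holds and on how much of it is captured, and these cannot be told apart in the data. Cytoplasmic mRNA, mitochondrial transcripts and RNAs held in the nucleus, such as Malat1, sit in different compartments, so their proportions describe which RNA a droplet held.

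The low-RNA germ cells had 2655 UMIs at the lowest, 3746.5 at the median and 6753 at the highest, and the deeper germ cells had 7064, 19798 and 44777. Detected genes were 1125 at the lowest, 1563 at the median and 2373 at the highest in the low-RNA cells, against 2205, 4598 and 6323. When every cell was thinned at random to 2500 UMIs, the low-RNA cells showed 1205 ± 79.7 genes (mean ± SD over 62 cells), the deeper germ cells 1244 ± 70.9 (265 cells) and the 160 other barcodes 1175 ± 110. The germ cell groups thus differed by 39.1 genes on average, with overlapping ranges (866 to 1354 and 1079 to 1453). At 4000 UMIs, which 27 members reached, the means were 1658 and 1736 genes, a difference of 78.8.

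The germ cell genes that chose the members gave them 2 to 22 UMIs each, with a median of 7.5. In 7 members the call rested on 2 or 3 UMIs, and 51 members had 5 or more. Per 10000 UMIs the members had 4.83 at the lowest, 18.8 at the median and 38.7 at the highest, and the plot of germ cell genes against total UMIs shows most of them well above the limit of 4. Nearest to the limit of 7000 UMIs, the 5 members just inside had 6113 to 6753 UMIs and mitochondrial shares of 0.44% to 8.54%, and the 5 germ cells just outside had 7064 to 7587 UMIs and shares of 0.04% to 5.48%. Malat1 gave 0 to 22 UMIs in the former and 2 to 16 in the latter.

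**Figure D1:**
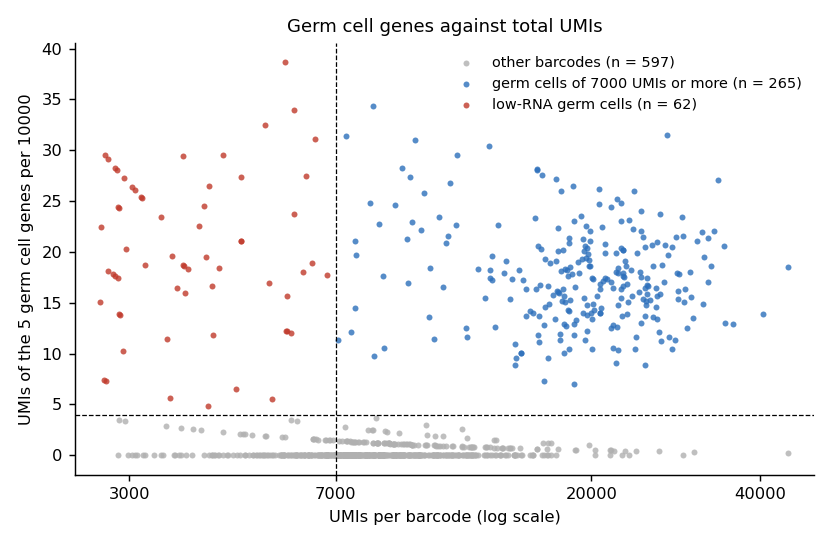
UMIs of Dazl, Ddx4, Mael, Zbtb16 and Sohlh1 per 10000 (vertical axis) against total UMIs per barcode (horizontal axis, log scale), 1 point per barcode of the 924 within the gene and mitochondrial limits; dashed lines mark 7000 UMIs and 4 per 10000. The 62 low-RNA germ cells (red) lie between 4.83 and 38.7 per 10000. The rule itself sets them apart from the 597 other barcodes (grey) and from the 265 deeper germ cells (blue) to their right.

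Uchl1, Tuba3a, Mt2 and Stra8 were set beside the label of germ cells. The rule did not use them, but they were chosen as markers with earlier results of these data known. They are therefore no independent check of the label. Dazl, encoding an RNA-binding protein of germ cells (chr17:50279395-50293636 of GRCm38, minus strand), was part of the rule and checks nothing. Uchl1, encoding a ubiquitin hydrolase of spermatogonia (chr5:66676091-66687234, plus strand), Tuba3a, encoding a testis alpha-tubulin (chr6:125278274-125286042, minus strand), and Mt2, encoding a metallothionein (chr8:94172664-94173568, plus strand), were all detected in 54 of 62 members. The same 3 genes were all detected in 258 of 265 deeper germ cells and in 2 of the 160 other barcodes. After thinning, Uchl1 had a UMI in 88.7% of low-RNA cells, 75.8% of deeper germ cells and 11.2% of the other barcodes. Reads of Tuba3a and its near copy Tuba3b, whose last 300 bases share a run of 179 identical bases, may be split between the genes, and both are uncertain for that reason.

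Markers of somatic testis cells (Sertoli, stromal, peritubular myoid, Leydig, macrophage, T cell and endothelial lists) gave the low-RNA cells a median of 5.36 UMIs per 10000, close to the 4.94 of the deeper germ cells and far from the 137 of the other barcodes. In 7 members, however, these markers had at least as many UMIs as the 5 germ cell genes, against 3 of the deeper germ cells. Of the 7, 1 had 70 Sertoli marker UMIs, 1 had 35 peritubular myoid UMIs, 1 had 16 T cell UMIs, and 1 had 15 macrophage and 10 T cell UMIs. The other 3 had 3 to 5 somatic UMIs. The germ cell label is therefore in doubt for 4 members. Summed over all 62 members, the log2 ratio over deeper germ cells was 1.18 for the Sertoli list, 2.47 for the myoid list, 1.08 for the macrophage list and 2.27 for the T cell list. Without the 7 the ratios were 0.05, -0.38, 0.32 and -2.43, with 1 T cell UMI left. Stromal markers gave a log2 ratio of 0.16, endothelial markers -0.09 and hemoglobin genes 0.03, and Leydig markers had 0 UMIs in the members. In the lists of these cell types the leading genes in the members were Ctsl (45 UMIs; Sertoli), Acta2 (19; myoid), Cd3g (15; T cell), Fcer1g (11; macrophage), Egfl7 (11; endothelial) and Dcn (7; stromal). Scrublet marked 4 of 970 barcodes as doublets, none of them a member.

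Levels are given as CPM, the UMIs of a gene or list summed over the cells of a group per 1000000 UMIs of that group, and ratios as the log2 of low-RNA over deeper germ cells with exact 95% intervals that cover counting error only. Of 2832 genes with a mean CPM of at least 50 over both groups, 124 (4.38%) were at least 2-fold higher and 142 (5.01%) at least 2-fold lower in the low-RNA cells. The median log2 ratio over these genes was 0.15 (quartiles -0.21 and 0.47), and each list is to be read against that value and those percentages. With mitochondrial and ribosomal protein genes left out of the totals, 3904 genes were tested and the median moved to 0.02. A larger share of genes was then at least 2-fold lower, with the count given at the end.

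The low-RNA germ cells held fewer transcripts of stem cell genes than the deeper germ cells did. Summed over 12 genes of the stem cell (SSC) list, including Id4, Etv5, Lhx1, Gfra1 and Ret, the level was 43.9 CPM (21.9 to 78.6) in the low-RNA cells, from 11 UMIs, and 260 CPM in the deeper germ cells, a log2 ratio of -2.57 (-3.57 to -1.72). The ratio was -1.18 when both groups were held to under 5% mitochondrial UMIs and -0.82 against the 60 deeper germ cells with 5 or more Stra8 UMIs per 10000, and deeper germ cells of 7000 to 10000 UMIs had 41.2 CPM. No UMI of the list was present in 54 of 62 members, against 81 of 265 deeper germ cells, a contrast that depth widens, since the latter had more UMIs each. Ret, encoding the signalling part of the receptor, gave 0 UMIs in the members and 282 in the deeper germ cells, and was at least 4.42-fold lower with 3 UMIs over the group taken as the floor. Gfra1 gave 1 UMI in the members and 194 in the deeper germ cells (log2 ratio -3.19, -8.50 to -0.69). Id4, whose product marks stem cells, had 0 UMIs in the members and 69 in the deeper germ cells, and Etv5, a transcription factor of self-renewal, had 1 and 171. All 12 genes were under the 50 CPM minimum, so none was counted past 2-fold. Zbtb16, a transcription factor of undifferentiated spermatogonia that the rule itself used, was at 59.9 CPM against 111.

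Progenitor genes did not move together. The 12 genes of that list summed to 763 CPM in the low-RNA and 680 CPM in the deeper germ cells, a log2 ratio of 0.17 (-0.05 to 0.38), and 0 of 4 tested genes were past 2-fold in either direction. The sum leans on Eno1, a glycolytic enzyme gene, which gave 97 of the 191 UMIs in the members and had a ratio of 0.82 (0.51 to 1.12), while the median of the 4 tested genes was -0.46. Sall4, encoding a zinc finger factor of spermatogonia, had -0.65 (-1.57 to 0.14), and Lin28a, encoding an RNA-binding protein, was under the level minimum with 6 UMIs (-1.33, -2.79 to -0.19).

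Differentiation genes were more abundant as a summed list, though not every gene was higher. The 15 genes of the differentiating list summed to 5284 CPM in the low-RNA cells against 3142 CPM, a log2 ratio of 0.75 (0.67 to 0.83). Much of the sum came from Uchl1 (344 of 1323 UMIs in the members), Tuba3a (267) and Stra8 (232). These were chosen as markers with earlier results of these data known. The median of the 10 tested genes was 0.82. Of 10 tested genes, 3 were at least 2-fold higher (Stra8, Dmrtb1 and Cited1), 1 was at least 2-fold lower (Ccnd2) and 6 were neither. Stra8 (chr6:34920163-34939344, plus strand), the retinoic acid target that accompanies commitment to differentiate, had 0 UMIs at the lowest, 1 at the median and 19 at the highest among members, and 0, 0 and 75 among deeper germ cells. The members were not uniform, with 22 at 0 and 20 at 5 or more. Summed, Stra8 reached 927 CPM (811 to 1054) against 320 CPM (305 to 336), a log2 ratio of 1.53 (1.33 to 1.73). The ratio was 0.10 against the 52 deeper germ cells of 7000 to 15000 UMIs alone and 0.72 when both groups were held to under 5% mitochondrial UMIs, so it was under 2-fold in both. At 2500 UMIs per cell, Stra8 had a UMI in 59.7% of low-RNA cells, 28.7% of deeper germ cells and 1.88% of the other barcodes. The part of free RNA in these values was not tested.

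Among the other differentiation genes, Uchl1 had 0 UMIs at the lowest, 5 at the median and 19 at the highest in the members, and its level was 1374 CPM against 699 CPM (log2 ratio 0.97, 0.81 to 1.13). Tuba3a had 0, 4 and 14 UMIs, and a log2 ratio of 0.77 (0.58 to 0.95), and Tuba3b had a ratio of 0.68 (0.46 to 0.89). Dmrtb1, encoding a transcription factor that governs the passage from mitosis to meiosis, had a ratio of 1.47 from 20 UMIs. Sycp3, encoding a component of the synaptonemal complex, had a ratio of 0.87 (0.51 to 1.22), and Sohlh2, encoding a helix-loop-helix factor of early differentiation, one of 0.55 (-0.28 to 1.28). Cited1, a transcriptional coregulator, had a ratio of 1.74 (1.32 to 2.14), which was 1.36 without the 7 members rich in somatic markers, 0.64 against deeper germ cells of 7000 to 15000 UMIs and 0.18 under 5% mitochondrial UMIs. Ccnd2, encoding cyclin D2, was lower at 196 CPM against 476 CPM (log2 ratio -1.28, -1.72 to -0.87), and Kit, the receptor that marks differentiating spermatogonia, gave 4 UMIs in the members (log2 ratio -0.97, -2.86 to 0.41), too few to place. Of the other markers named for these cells, Mt2 was level, with 2137 CPM against 2152 CPM (log2 ratio -0.01, -0.14 to 0.12), and Dazl, a gene of the rule, had 1034 CPM against 780 CPM.

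Genes of meiotic entry gave a log2 ratio of 0.14 (0.01 to 0.26) over 20 genes, at the median of all genes, and it was below 0 in 6 of 16 alternatives, as far as -0.48 against deeper germ cells of 7000 to 15000 UMIs. Of 8 tested, Syce1, a synaptonemal complex gene, was at least 2-fold higher (1.11), Tex15, required for meiotic recombination, at least 2-fold lower (-1.41), and 6 were neither. The 20 germline genes outside the rule gave 0.20 (0.07 to 0.33), with 0 of 12 tested genes at least 2-fold higher and Elavl2, an RNA-binding protein gene, lower at -1.71. Tex19.1, which restrains transposons, had 0.93, Tdrkh, a piRNA pathway gene, 0.82, and Mov10l1, a piRNA pathway helicase gene, -0.89.

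The plot of levels by total UMIs shows that the differences in Stra8 and the stem cell list did not begin at 7000. Stra8 was at 1036 CPM in germ cells under 5000 UMIs (47 cells), 725 CPM from 5000 to 7000 (15 cells), 971 CPM from 7000 to 10000 (20 cells), 312 CPM from 10000 to 20000 (118 cells) and 291 CPM at 20000 and over (127 cells). The stem cell list was at 37.0, 56.6, 41.2, 226 and 293 CPM in the same order, so that both changed above 10000 UMIs. Uchl1 was at 1407, 1314 (1086 to 1576), 894 (758 to 1048), 675 and 703 CPM, so that its summed level was already lower from 7000 to 10000 UMIs. These intervals leave out the spread between the 15 and 20 cells behind the 1314 and 894 CPM, and where the change began was not tested. Against the 52 deeper germ cells of 7000 to 15000 UMIs alone, the differentiating list had a log2 ratio of 0.21.

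**Figure D2:**
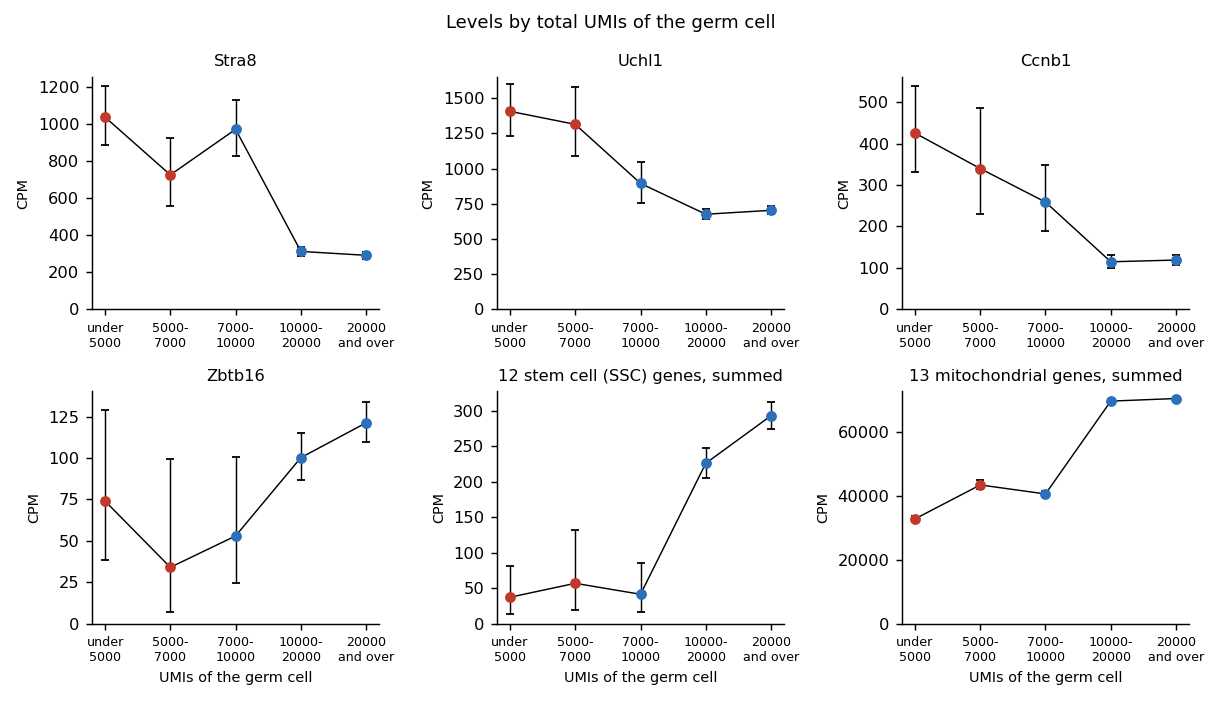
Summed CPM (vertical axes, from 0) of Stra8, Uchl1, Ccnb1, Zbtb16, the 12 stem cell genes and the 13 mitochondrial genes in germ cells grouped by total UMIs (horizontal axes), with exact 95% Poisson intervals; red points are low-RNA and blue points deeper germ cells. The cells of 7000 to 10000 UMIs lie nearer to the low-RNA cells than to the deepest cells for Stra8 (971 CPM), the stem cell genes (41.2 CPM) and the mitochondrial genes (40678 CPM). They lie nearer to the deepest cells for Uchl1 (894 CPM) and between the groups for Ccnb1 (259 CPM).

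Mitochondrial transcripts were a smaller part of the RNA of most members, although the limit of 10% bounds both groups. The mitochondrial share was 0.00% at the lowest, 2.47% at the median and 9.99% at the highest in the low-RNA cells, and 0.04%, 6.99% and 9.86% in the deeper germ cells. Under 2% were 27 of 62 members, against 12 of 265 deeper germ cells and 10 of 160 other barcodes, and 5% or more were 18 of 62, 240 of 265 and 47 of 160. The low-RNA cells thus spread over the whole permitted range, whereas most deeper germ cells gathered near 7%. The lower share was not particular to the members. The 20 deeper germ cells of 7000 to 10000 UMIs had a median of 4.05%, beside 4.36% in the 15 members of 5000 to 7000 UMIs. The median was 7.08% in the 118 germ cells of 10000 to 20000 UMIs. Summed, the 13 mitochondrially encoded genes were at 36603 CPM against 69391 CPM, a log2 ratio of -0.92 (-0.95 to -0.89). All 12 tested genes were lower, from -0.63 for mt-Cytb to -1.74 for mt-Atp8 (7 UMIs), and mt-Atp8, mt-Co1, mt-Nd2, mt-Nd3, mt-Nd4l and mt-Nd5 were at least 2-fold lower. The nuclear genes of the respiratory chain did not share this pattern. They gave 0.12 (0.09 to 0.15), with 0 of 71 tested past 2-fold, and the ribosomal protein genes gave -0.02 with 0 of 83.

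The direction of the mitochondrial difference depends on the limit. A further 13 barcodes under 7000 UMIs met the germ cell rule but had 11.4% mitochondrial UMIs at the lowest, 42.8% at the median and 69.3% at the highest, against 7 such barcodes of 7000 UMIs or more. With these included, the log2 ratio was 0.44. The 13 excluded barcodes had 32.7 CPM of Stra8 (2 UMIs) and 507 CPM of Uchl1, where the 62 members had 927 and 1374 CPM. Their mitochondrial UMIs took 336490 of each 1000000, which lowers the CPM of every other gene, and this part of the gap was not separated out.

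Among the members, those with the smallest mitochondrial share were lower in Stra8. It was at 594 CPM (457 to 759) in the 27 members under 2%, 1205 CPM (951 to 1506) in the 17 members of 2% to 5% and 1156 CPM (930 to 1419) in the 18 members of 5% or more. Tuba3a ran the other way, with 1281 CPM (1076 to 1513), 1142 CPM (895 to 1436) and 711 CPM (537 to 924), as did Mt2, with 2543, 1987 and 1702 CPM. Uchl1 was similar in all 3, at 1448, 1440 and 1219 CPM, with intervals that overlapped.

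Malat1, a long noncoding RNA retained in the nucleus (chr19:5795690-5802672, minus strand), was nearly missing from most low-RNA cells. The members had 0 UMIs at the lowest, 1 at the median and 262 at the highest, with 24 of 62 at 0 and 53 of 62 at 2 or fewer. The deeper germ cells had 0, 63 and 415, with 1 of 265 at 0. Per 10000 UMIs the medians were 2.44 in the low-RNA cells, 32.8 in the deeper germ cells and 347 in the other barcodes. After thinning to 2500 UMIs, 54.8% of low-RNA cells had a Malat1 UMI, against 97.0% of deeper germ cells and 93.8% of the other barcodes. Low Malat1 was also found in part of the other barcodes of the fewest UMIs. Under 4000 UMIs, 34 of 35 members and 9 of 21 other barcodes had fewer than 10 Malat1 UMIs per 10000, against 20 of 27 and 3 of 139 from 4000 to 7000 UMIs, a split made after values were seen.

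The summed level hid this, since 3 members with 105, 154 and 262 Malat1 UMIs held 521 of the 665 in the group. Those 3 were the members rich in T cell, Sertoli and myoid markers. With all members the summed level was 2656 CPM against 4205 CPM (log2 ratio -0.66, -0.78 to -0.55), and without the 7 members rich in somatic markers it was 620 CPM (log2 ratio -2.76, -3.01 to -2.52). The list of nuclear-retained long noncoding RNAs went from -0.68 to -2.63 on the same change. With a germ cell rule of at least 2 UMIs per 10000, which raised the members to 75, the direction turned, to 1.21 for the list, 1.15 for Malat1 and 1.90 for the list without Malat1. Without Malat1 that list had a log2 ratio of -1.07 (-1.63 to -0.56) from 31 UMIs, with Snhg11 at -1.38 (11 UMIs) and Meg3 at -0.75 (10 UMIs, -1.82 to 0.15), and all annotated long noncoding RNA genes without Malat1, a set taken after values were seen, had -0.40 (-0.48 to -0.32).

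**Figure D3:**
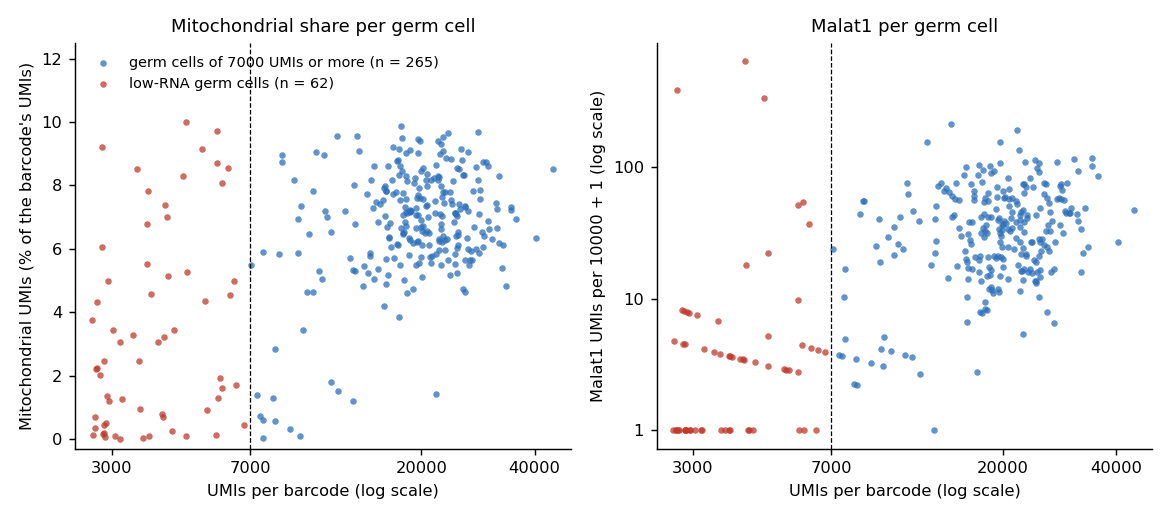
Mitochondrial UMIs in percent (left) and Malat1 UMIs per 10000 plus 1 on a log scale (right) against total UMIs per barcode (log scale), 1 point per germ cell, with 62 low-RNA cells in red and 265 deeper germ cells in blue; the dashed line marks 7000 UMIs. Most red points lie under 10 Malat1 UMIs per 10000 (54 of 62, against 28 of 265), and the 3 highest are members rich in somatic markers.

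Low Malat1 and a low mitochondrial share occurred together, most clearly in the deeper germ cells. Of the 12 deeper germ cells under 2% mitochondrial UMIs, 11 had fewer than 10 Malat1 UMIs per 10000, against 28 of all 265. All 27 members under 2% did too, but so did 54 of all 62 members. Low Malat1 also occurred alone, in 12 of the 18 members with 5% or more mitochondrial UMIs, against 13 of 240 deeper germ cells. The 6 members with 5 or more Malat1 UMIs that were not rich in somatic markers all had 7.38% to 9.99% mitochondrial UMIs. Among the 20 germ cells of 7000 to 10000 UMIs, 8 were under 2% mitochondrial UMIs and 11 under 10 Malat1 UMIs per 10000, against 4 and 17 of the 245 germ cells with 10000 UMIs or more.

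Stress genes gave little difference. The 18 immediate early genes, which respond within minutes to tissue dissociation, summed to 331 CPM in the low-RNA cells and 350 CPM in the deeper germ cells (log2 ratio -0.08, -0.41 to 0.24), against 2604 CPM in the other barcodes. Fos gave 2 UMIs and Jun 7 in the members. The heat shock list had a ratio of 0.30 (0.24 to 0.36), with 0 of 6 tested genes past 2-fold. Hspa8, a constitutive chaperone, was higher at 0.79, Hsp90aa1 was at 0.27 and Dnajb1, a heat-inducible cochaperone, was lower at -1.33 from 7 UMIs, while the inducible Hspa1a and Hspa1b, near copies whose reads may be split, gave 1 UMI each. Genes of the endoplasmic reticulum and integrated stress responses gave -0.03 (-0.27 to 0.19), with 0 of 4 tested past 2-fold. Atf4, its central transcription factor, had -0.46 (-1.54 to 0.44) and Ddit3, a target tied to cell death, gave 2 UMIs. Metallothionein and antioxidant genes gave 0.15, the median of all genes, with 0 of 11 past 2-fold. Prdx2 (0.90) and Prdx1 (0.67), which reduce peroxides, were the higher members of that list, Mt1 was at -0.20 and Sod1 at -0.16.

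Cell death genes were somewhat higher as a list, and the 5 tested were each under 2-fold. The 26 genes of the p53 target and cell death list summed to 2085 CPM against 1483 CPM, a log2 ratio of 0.49 (0.36 to 0.62), and 0 of 5 tested genes were past 2-fold in either direction. Ccng1, a p53 target, had 0.99 (0.43 to 1.51), Aifm1, a mitochondrial flavoprotein that moves to the nucleus in some forms of death, 0.98 (0.44 to 1.47), Cycs, encoding cytochrome c, 0.65 (0.43 to 0.87), Diablo, which counters caspase inhibitors, 0.52 (0.12 to 0.90), and Bax, which permeabilizes mitochondria, 0.33 (0.05 to 0.61). Cdkn1a, the p21 gene, was under the level minimum, with 14 UMIs in the members and 90 in the deeper germ cells (1.73, 0.80 to 2.55). Cycs and Aifm1 are also genes of normal respiration, and Cycs gave 180 of the 522 UMIs of the list.

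Cell cycle lists were near the housekeeping list (0.27). The list of G2 and M phase gave 0.31 (0.23 to 0.39), with 2 of 18 tested genes at least 2-fold higher and none at least 2-fold lower, and it was at -0.032 under 5% mitochondrial UMIs. Ccnb1, encoding cyclin B1, was at 395 CPM (321 to 481) against 122 CPM, a log2 ratio of 1.70 (1.38 to 2.01), which was 0.74 under 5% mitochondrial UMIs, and Aurka, a mitotic kinase gene, had 1.10. Top2a (-0.66) and Cenpf (-0.52), long transcripts of the same phase, lay on the other side. The S phase list gave 0.29 (0.17 to 0.40), with Rrm2 and Cdc45 at least 2-fold higher and Uhrf1 at least 2-fold lower of 16 tested. Ribosome biogenesis genes gave 0.26 (0.19 to 0.34; 0 of 14 past 2-fold), with Fbl, encoding fibrillarin, at 0.95, and glycolysis genes 0.41 (0.30 to 0.51), with Tpi1, encoding triosephosphate isomerase, at 1.80 the 1 gene of 8 past 2-fold.

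**Figure D4:**
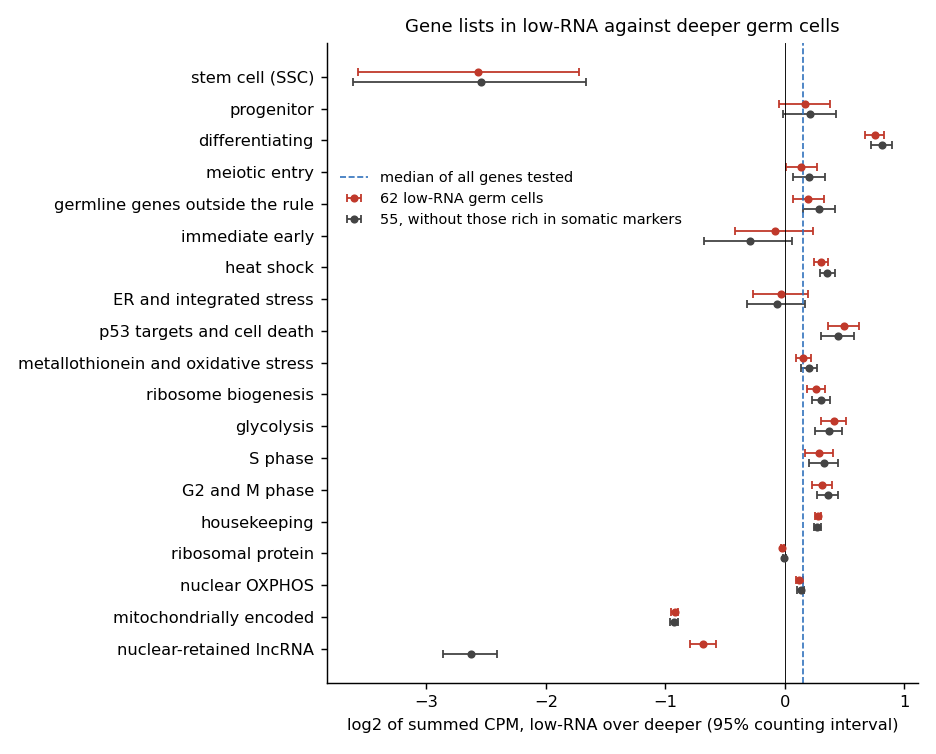
Log2 ratio of summed CPM, low-RNA over deeper germ cells (horizontal axis), for 19 gene lists, with exact 95% counting intervals; red points use all 62 members and dark points the 55 left without those rich in somatic markers, and the dashed line is the median of 0.15 over all genes tested. The stem cell, mitochondrially encoded and nuclear-retained RNA lists lie on the low side and the differentiating list on the high side; of the 19 lists, the nuclear-retained one moves farthest between the point colours, from -0.68 to -2.63.

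Long transcripts were scarcer than short ones. The 81 housekeeping genes as a whole gave a log2 ratio of 0.27 (0.25 to 0.30), with 4 of 67 tested at least 2-fold higher and 3 at least 2-fold lower. Among the housekeeping genes, the 34 with a longest protein-coding transcript of 3000 bases or more gave 1044 UMIs in the members and the 18 under 1000 bases gave 4622, a ratio of 0.226. The ratio was 0.319 in the deeper germ cells and 0.304 in the other barcodes, so the low-RNA germ cells stood below both, and their log2 ratio to the deeper germ cells was -0.50 (-0.59 to -0.41), or -0.48 without the 7 members rich in somatic markers. Of the 22 long genes tested, 3 (Cltc, Ep400 and Arid1a, encoding clathrin heavy chain and a pair of chromatin remodelling proteins) were at least 2-fold lower and none at least 2-fold higher. Of the 18 short genes 1 was at least 2-fold higher (B2m) and none at least 2-fold lower. The long genes did not all lie low. Ddx5, an RNA helicase gene of 3559 bases that gave 233 of the 1044 UMIs, was at 0.72, and Macf1, the longest of them at 23495 bases and under the level minimum, at 0.49 (9 UMIs, -0.67 to 1.46). Macf1 was the only long gene under the minimum with a ratio above 0. Kmt2a (2 UMIs) was at -3.30 (-6.35 to -1.44) and Ubr4 (4 UMIs) at -2.01 (-3.89 to -0.64). The median ratio was -0.57 for the 22 long genes tested and 0.15 for the 18 short ones.

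Across all tested genes outside the mitochondrial and ribosomal protein genes, long over short gave 1.05 in the low-RNA cells, 1.19 in the deeper germ cells and 0.845 in the other barcodes, so the log2 ratio to the deeper germ cells was smaller, at -0.18 (-0.20 to -0.17), and the low-RNA cells lay above the other barcodes. The difference from the deeper germ cells lay mainly above 4000 bases. The median log2 ratio was 0.16 for 329 genes under 1000 bases, 0.27 for 433 of 1000 to 1500, 0.29 for 412 of 1500 to 2000 and 0.28 for 605 of 2000 to 3000. It then declined to 0.07 for 364 genes of 3000 to 4000 bases, -0.07 for 227 of 4000 to 5000, -0.30 for 185 of 5000 to 7000 and -0.46 for 143 of 7000 and over. In the longest class 24.5% of genes were at least 2-fold lower, against 0.912% in the shortest. By depth, the housekeeping ratio of long over short was 0.23 under 5000 UMIs, 0.22 from 5000 to 7000, 0.27 from 7000 to 10000 and 0.32 in both deeper classes. Among members it was 0.20 under 2% mitochondrial UMIs, 0.23 from 2% to 5% and 0.25 at 5% or more, and it was 0.43 in the 13 excluded barcodes of 10% or more.

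**Figure D5:**
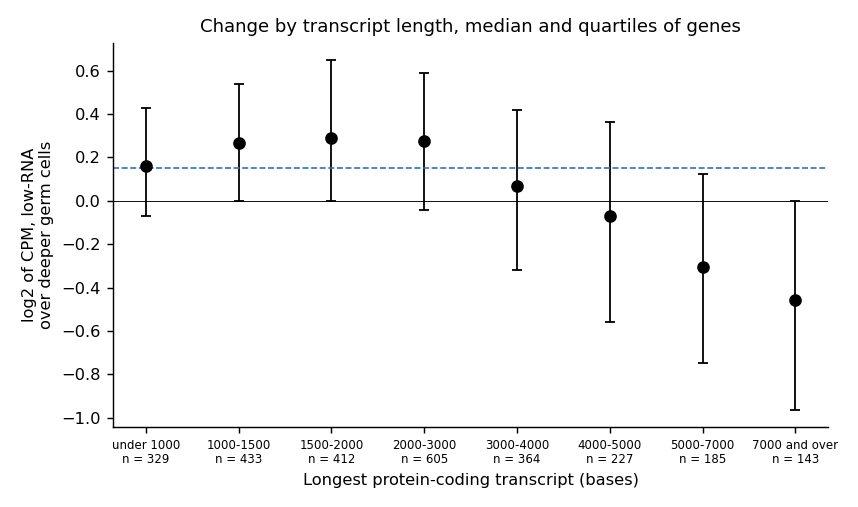
Median log2 ratio of CPM, low-RNA over deeper germ cells (vertical axis), for tested genes grouped by the length of their longest annotated protein-coding transcript (horizontal axis, in bases, with the number of genes); bars are quartiles over genes and the dashed line is the median of 0.15. The medians lie between 0.16 and 0.29 up to 3000 bases and decline to -0.46 at 7000 bases and over.

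Among the 12 genes with the highest ratios, of those found in at least 25% of members and not carried by a single barcode, were Tmsb4x (2.19), Oat (1.76), Cited1 (1.74), Ccnb1 (1.70), Xab2 (1.57), Ccdc167 (1.54), Stra8 (1.53), Eif4a1 (1.50), Kpna2 (1.45) and Pno1 (1.36). Tmsb4x, encoding an actin-binding thymosin abundant in somatic cells (4100 CPM in the other barcodes), had a log2 ratio of 0.06 without the 7 members rich in somatic markers, and Oat, encoding ornithine aminotransferase, was then at 1.24. The other 8 named here were then between 1.33 and 1.81. Eif4a1, the helicase of translation initiation, was present in all 62 members, with 2237 CPM against 791 CPM (log2 ratio 1.50, 1.37 to 1.63). Kpna2 encodes a nuclear import receptor, Xab2 a splicing factor and Pno1 a ribosome assembly factor.

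The 12 genes with the lowest ratios were Pdk1 (-2.76), Atp2b1 (-2.63), Zfp292 (-2.62), Zc3h13 (-2.50), Ankrd11 (-2.48), Foxo1 (-2.48), Sdc4 (-2.19), Ski (-2.16), Il11 (-2.12), Bptf (-2.09), Ptprf (-2.07) and Sec61a1 (-2.01). Foxo1, a transcription factor of undifferentiated spermatogonia, gave 5 UMIs in the members and 594 in the deeper germ cells, and Sdc4, encoding a cell-surface proteoglycan, 17 and 1650. Ankrd11, Bptf, Zfp292 and Ski encode nuclear regulators, and Atp2b1, Ptprf and Sec61a1 encode membrane proteins. The median length of their longest transcripts was 6640.5 bases, against 2103 for the 12 highest genes and 2229 for the tested genes outside the mitochondrial and ribosomal protein genes, so length and this list moved together, and the part of length in it was not tested. Of the 12, the genes under 3000 bases were Sdc4 (2458) and Il11 (1949), which encodes a cytokine.

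Among gene families taken after values were seen, proteasome genes had a log2 ratio of 0.53 (0.48 to 0.59) with 2 of 34 tested at least 2-fold higher, and translation initiation factors had 0.48 (0.43 to 0.52) with 5 of 40 at least 2-fold higher. Mitochondrial ribosomal protein genes were near the median of all genes, at 0.17, and genes with Tmem names, which encode membrane proteins, gave -0.15 (-0.23 to -0.06) with 1 of 28 tested at least 2-fold lower and a median of 0.04. Solute carriers outside the Slc25 family gave -0.56 (-0.72 to -0.41) with Slc7a5 the 1 gene of 4 tested at least 2-fold lower, whereas the mitochondrial carriers of the Slc25 family gave 0.40 (0.26 to 0.54), with Slc25a31, a germ cell ADP/ATP carrier gene, the 1 gene of 6 at least 2-fold higher.

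Since the groups differed in stage genes, the comparison was repeated against the 60 deeper germ cells with 5 or more Stra8 UMIs per 10000, a choice made after values were seen. Only the deeper cells were chosen by Stra8. All 62 members were kept, 22 of them with 0 Stra8 UMIs, so the groups were not matched for stage. Beside the stem cell list given above, the meiotic entry list then had a log2 ratio of -0.34. The mitochondrial ratio was -0.93, the housekeeping ratio of long over short transcripts -0.56, Ccnb1 1.80, Uchl1 0.74 and Tuba3a 0.64. The cell death list was at 0.35 and Mt2 at 0.31.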

How the data were processed

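The authors made the library with Chromium v2 chemistry, processed the reads with Cell Ranger 2.1.0 against mouse mm10 and deposited raw UMI counts per gene and barcode, without normalization. Zscan2−/− cells were not analysed here, and Seurat, named in the submitters' notes, was not used. Members and gene lists were chosen with earlier results of these data known.

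Barcodes with at least 500 genes and under 10% mitochondrial UMIs were split by the germ cell rule and at 7000 UMIs. Counts were summed per group and given as CPM. Intervals are exact at a 95% level, of the Poisson kind for CPM, the conditional binomial kind for ratios and the binomial kind for shares. The analysis used Python 3.11.15, scipy 1.17.1 and scanpy 1.11.5 (scrublet, expected rate 0.01). Thinning drew 2500 UMIs per cell without replacement. Genes were counted past 2-fold if their mean CPM over both groups was at least 50. Named genes are those of the rule and the markers, list genes over that minimum, and the 12 highest and 12 lowest ratios, detected in 25% or more of the higher group's cells and no barcode holding over 1/3 of its UMIs, leaving out ribosomal protein, mitochondrial and Gm- or Rik-named genes. Of the 12 highest, 2 are not reported here. A few list genes under the minimum are named with their UMIs, chosen after their values were seen. Positions and transcript lengths are from GENCODE M21 (GRCm38, the assembly of mm10). Cells per mouse are unknown, and intervals leave out differences between mice. The computations were tested on simulated counts, and the alternatives covered the limits, germ cell rule, denominator, comparison group, level minimum, thinning and length classes.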

Additional observations from a re-analysis of the deposited data

How the results depend on the processing

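No paired analysis was possible because all cells came from a single library. The Leydig list, with 0 UMIs in the members, gave no ratio. Every value has counting error only behind it, and the mice, the dissociation and the capture of RNA cannot be told apart from the cells' state. The cause of the changes below was not tested.

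The mitochondrial log2 ratio was -0.92 and became 0.44 without a mitochondrial limit. It was -1.07 and -0.88 with limits of 5000 and 10000 UMIs, -0.87 under 5% mitochondrial UMIs, -0.99 with cells weighted equally, -1.002 without mitochondrial and ribosomal protein genes in the total, and -0.63 against deeper cells of 7000 to 15000 UMIs. The nuclear-retained RNA list was -0.68 and became 1.21 with at least 2 germ UMIs per 10000, which let in barcodes with few germ cell UMIs. It was -2.62 with at least 8, -2.60 without germ cells rich in somatic markers, -0.30 and -0.92 with limits of 5000 and 10000 UMIs, -0.45 under 5% mitochondrial UMIs, -0.41 against deeper cells with 5 or more Stra8 UMIs per 10000, and -2.56 against differentiating deeper cells without the somatic-rich cells. The last 2 comparison groups were chosen after seeing the data.

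The stem cell list was -1.18 under 5% mitochondrial UMIs and -0.82 against Stra8-rich deeper cells. The differentiating list was 0.54 with at least 2 germ UMIs, 0.21 against 7000 to 15000 UMIs, 0.62 against differentiating deeper cells, 0.58 without a mitochondrial limit and 0.30 under 5%. The cell death list was 0.35 against Stra8-rich cells, 0.31 without a mitochondrial limit and 0.36 under 5%. The ratio of long over short housekeeping transcripts was -0.18 over all genes, -0.94 with limits of 1500 and 5000 bases, -0.41 against 7000 to 15000 UMIs, -0.35 without a mitochondrial limit and -0.29 under 5%. The share of deeper cells with a Stra8 UMI was 48.1% at 7000 to 15000 UMIs, 34.7% in differentiating cells and 35.2% in those without somatic-rich cells, and the share of low-RNA cells was 74.1% at 4000 UMIs.

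Genes at least 2-fold higher and lower numbered 124 and 142 of 2832 tested. They were 60 and 74 of 2860 with a limit of 10000 UMIs, and 48 and 34 of 1484 at a mean of 100 CPM. At 20 CPM they were 300 and 600 of 5492, and with no minimum 1652 and 1597 of 10803. Without a mitochondrial limit 61 of 2815 were higher, and without mitochondrial and ribosomal protein genes in the total 360 of 3904 were lower.

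Other called signs that turned follow. Meiotic entry was -0.13 with a limit of 5000 UMIs, -0.10 with at least 2 germ UMIs, -0.17 under 5% mitochondrial UMIs, -0.031 with equal weights, -0.48 against 7000 to 15000 UMIs and -0.34 against Stra8-rich cells. With at least 2 germ UMIs, the rule genes were -0.025, other germline genes -0.049, metallothionein and antioxidant genes -0.011, annotated long noncoding RNAs 0.52, the nuclear-retained list without Malat1 1.90 and Malat1 1.15. Myoid markers were -0.37 and T cell markers -0.86 with at least 8 germ UMIs, -0.19 and -2.43 without somatic-rich cells, and -0.21 and -2.38 with differentiating deeper cells as well. G2 and M phase genes were -0.032 under 5% mitochondrial UMIs, and Sycp3 was -0.00081 against 7000 to 15000 UMIs. The immediate early and stromal lists, whose intervals held 0, ranged from -0.31 to 0.74 and from -1.49 to 2.91.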
